A study of Mus musculus with 2 samples.

Results

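The genes examined here encode the enzymes that make sterols and fatty acids, the factors that set their transcription, and the proteins that store, move and export cholesterol in macrophages. There were 39 of them, listed by name with earlier results of these data known and matched by gene number to the tables. All 39 were listed in both libraries, out of 15623 genes listed in either. The libraries came from peritoneal macrophages of young adult wild-type C57BL/6 mice, elicited with thioglycolate, selected by adherence and kept in low-serum medium. The cells were either nontreated (NT) or stimulated with mouse IL-4 for 6 h, and each of the 2 groups held 1 library. The number of mice behind each library was not given, and another field of the labels names the tissue as bone marrow. With 1 library a group, variation between animals is unknown, and every test compares these libraries and not the conditions.

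Cells build cholesterol from acetyl-CoA through the mevalonate pathway, which yields farnesyl diphosphate, and then through squalene, lanosterol and a series of ring and side-chain steps. The genes of these enzymes are controlled by sterol regulatory element-binding proteins (SREBPs), membrane-bound factors that Scap escorts out of the endoplasmic reticulum when sterols are scarce and that Insig proteins hold back when sterols are plentiful. When sterols accumulate, oxysterols activate the liver X receptors (LXRs), which raise the transporters Abca1 and Abcg1 and the ubiquitin ligase Mylip, which degrades lipoprotein receptors. Macrophages handle much cholesterol because they engulf cells and lipoproteins, and they store it as esters made by Soat1.

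The stretches before the annotated starts of 5 genes are printed as examples. Hmgcs1 encodes a sterol enzyme, and Mylip, Dhcr7, Abca1 and Ch25h are the genes called different between the libraries. The stretches were taken from RefSeq (GRCm38.p6). They end before the RefSeq bounds of the gene and before any exon of a protein-coding GENCODE transcript. Exons of noncoding transcripts were not cut out. Capitals mark a sterol regulatory element of the form TCACNCCAC or a CCAAT box, the site of NF-Y, a partner of SREBPs, on either strand (ATTGG is the box on the opposite strand). The stretch of Hmgcs1 is chr13:119690101-119690350 on the plus strand, and that of Mylip is chr13:45389492-45389741 on the plus strand. The stretch of Dhcr7 is chr7:143822917-143823166 on the plus strand. The stretch of Abca1 is chr4:53159989-53160145 on the minus strand, and that of Ch25h is chr19:34475165-34475398 on the minus strand.
Hmgcs1: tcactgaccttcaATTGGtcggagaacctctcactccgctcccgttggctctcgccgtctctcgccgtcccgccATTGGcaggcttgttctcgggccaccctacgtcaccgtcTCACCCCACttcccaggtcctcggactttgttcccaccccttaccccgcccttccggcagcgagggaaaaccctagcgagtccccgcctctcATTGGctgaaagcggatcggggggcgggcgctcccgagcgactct
Mylip: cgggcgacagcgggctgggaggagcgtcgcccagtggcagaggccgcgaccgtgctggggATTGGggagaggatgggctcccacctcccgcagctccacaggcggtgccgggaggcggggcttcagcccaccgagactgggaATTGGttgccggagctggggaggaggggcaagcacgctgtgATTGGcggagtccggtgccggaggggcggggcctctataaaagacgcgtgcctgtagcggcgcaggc
Dhcr7: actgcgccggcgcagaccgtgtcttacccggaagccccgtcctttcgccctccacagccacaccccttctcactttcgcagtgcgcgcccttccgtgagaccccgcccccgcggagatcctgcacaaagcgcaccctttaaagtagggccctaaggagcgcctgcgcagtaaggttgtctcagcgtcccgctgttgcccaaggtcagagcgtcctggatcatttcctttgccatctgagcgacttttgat
Abca1: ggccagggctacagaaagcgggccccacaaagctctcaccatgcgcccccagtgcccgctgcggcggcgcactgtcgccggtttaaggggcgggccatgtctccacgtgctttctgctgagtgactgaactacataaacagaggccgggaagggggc
Ch25h: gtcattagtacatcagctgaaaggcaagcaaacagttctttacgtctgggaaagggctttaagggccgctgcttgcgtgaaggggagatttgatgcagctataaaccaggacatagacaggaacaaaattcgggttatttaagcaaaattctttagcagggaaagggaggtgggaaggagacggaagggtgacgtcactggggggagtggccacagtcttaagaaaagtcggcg

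The Hmgcs1 stretch held 1 sterol regulatory element and 3 CCAAT boxes, and that of Mylip held 3 CCAAT boxes. Those of Dhcr7, Abca1 and Ch25h held neither motif. A window of 250 bases before the start was taken from the RefSeq table for 30 of the 39 genes. The first listed start of each gene was used. Fdps, Fdft1, Sqle, Abcg1, Scd1, Scd2 and Fads1 had no entry. Stard4 and Npc1 were not searched, because windows on chromosome 18 were left out for the 39 genes. The windows of all genes tested were not filtered in this way. A CCAAT box lay in 22 of the 30 windows (73.3%), beside 36.4% of the 12171 windows of all genes tested. Among sterol synthesis enzymes it lay in 13 of 15 (86.7%), and the exceptions were Acat2 and Dhcr7. The sterol regulatory element lay in 1 of the 30, beside 0.986% of all windows. That window was the one of Hmgcs1, which is thus not typical of the sterol enzymes in this motif. An Sp1 box (GGGCGG) lay in 20 of the 30 (66.7%, beside 55.5%). By role it lay in 14 of 15 windows of sterol synthesis enzymes (93.3%) and 3 of 5 of sterol traffic (60%). It lay in 2 of 5 windows of SREBP control genes (40%) and 1 of 5 of fatty acid genes (20%). The palindrome TTCNNNNGAA, which Stat6 can bind, lay in 0 of the 30, beside 4.6% of all windows. A match is only a match of letters, and all these counts cover both strands.

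**Figure D1:**
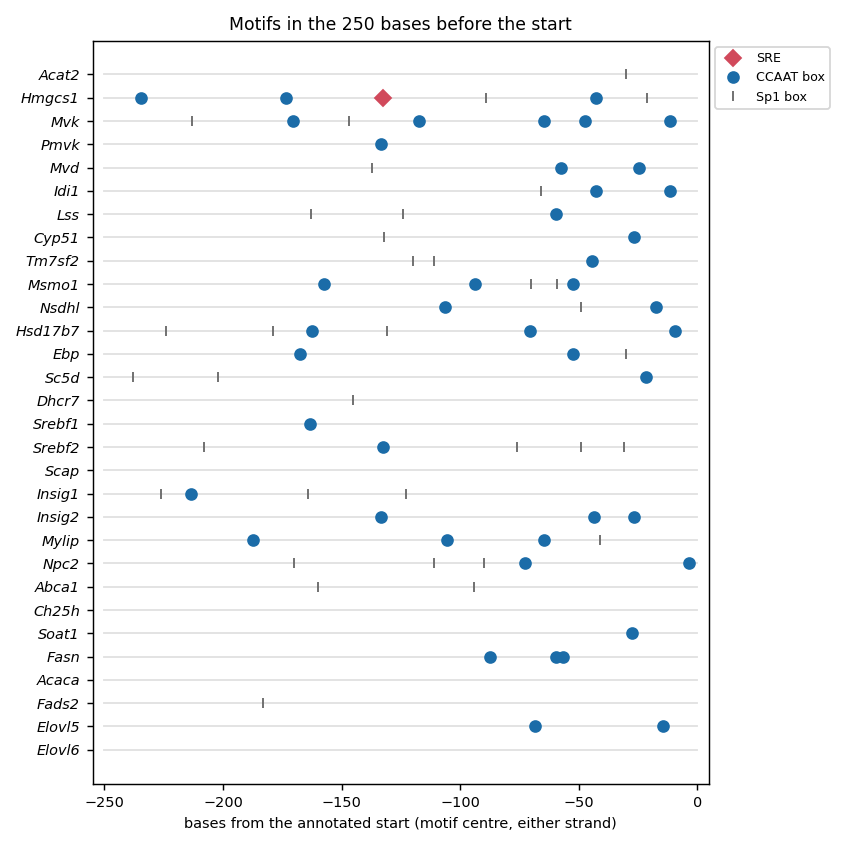
Position of sterol regulatory elements (diamonds), CCAAT boxes (circles) and Sp1 boxes (ticks) in the 250 bases before the annotated start of 30 genes, with the distance from the start in bases on the horizontal axis. CCAAT boxes lie in 22 of the 30 windows, and the 1 sterol regulatory element lies in that of Hmgcs1.

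Few of these genes were called different between the libraries. Of the 39 genes, 2 were called higher with IL-4 (Ch25h and Dhcr7), beside 4.07% of the 15593 genes tested. A further 2 were called lower (Abca1 and Mylip), beside 6.28% of the genes tested. Calls required a log2 ratio (IL-4 over NT) of 0.75 or more in size, together with an exact binomial p-value up to 0.05 and a Benjamini-Hochberg adjusted value up to 0.5. So few calls are not read as different from these backgrounds. Over the 39 genes the log2 ratio had a median of -0.02, and over all genes tested one of -0.03. Of the 39 genes, 23 (59.0%) had a log2 ratio under 0.25 in size, beside 38.7% of all genes tested and 52.3% of the 8463 genes with at least 200 reads. In bulk RNA, fewer cells of a type and less RNA per cell cannot be told apart.

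Smaller differences passed counting error in both directions, about as often as among all genes with at least 200 reads. The counts are therefore not read as a trait of these genes. The 95% interval of the log2 ratio lay wholly above 0 for 11 of the 39 genes, beside 17.9% of all genes tested and 28.0% of those with at least 200 reads. It lay wholly below 0 for 12, beside 20.4% and 30.2%. For 32 of the 35 genes not called, the interval lay within 0.75 on both sides of 0. The other 3 were Hsd17b7, Fads1 and Elovl6, whose intervals reached past -0.75. Intervals cover counting error only, since reads carried no molecular identifiers and some may be copies of 1 molecule.

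**Figure D2:**
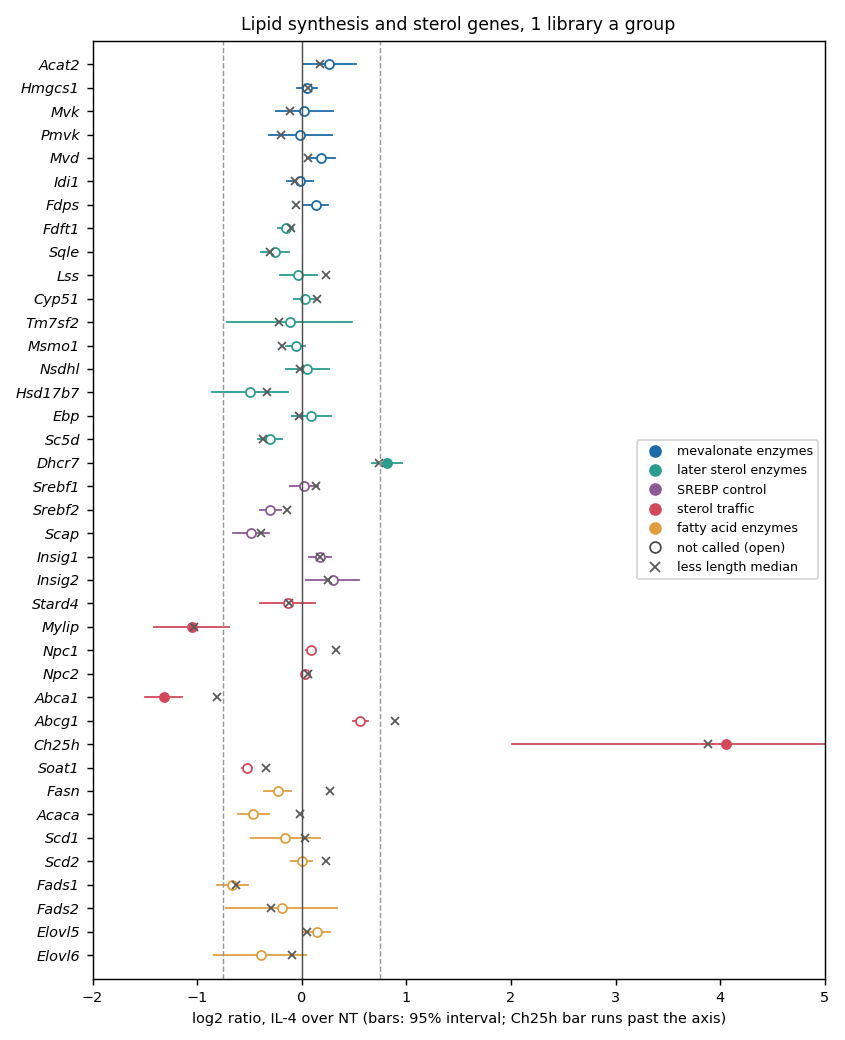
Log2 ratio of IL-4 over NT (horizontal axis) for each of the 39 genes, coloured by role, from 1 library a group. Circles are ratios (filled where called), bars are exact 95% intervals of counting error, crosses are ratios less the median of the 200 genes nearest in transcript length, and dashed lines mark 0.75 in each direction. The 4 filled circles are Dhcr7, Mylip, Abca1 and Ch25h.

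Levels of the genes spanned several orders of magnitude, with sterol traffic genes at both ends. Per length, Npc2, a lysosomal protein that hands cholesterol to Npc1, was the most abundant, at 434.11 FPKM (fragments scaled to transcript length and library size) in NT and 443.79 FPKM in IL-4. Soat1 and Npc1 followed in both libraries, and Ch25h in NT and Elovl6 in IL-4 were the lowest. A level of at least 10 FPKM in both libraries was reached by 26 of the 39 genes, and 6 were under 5 FPKM in both. Dhcr7 moved furthest in the order of levels, from place 20 in NT to place 12 in IL-4, and no other gene moved by more than 4 places.

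**Figure D3:**
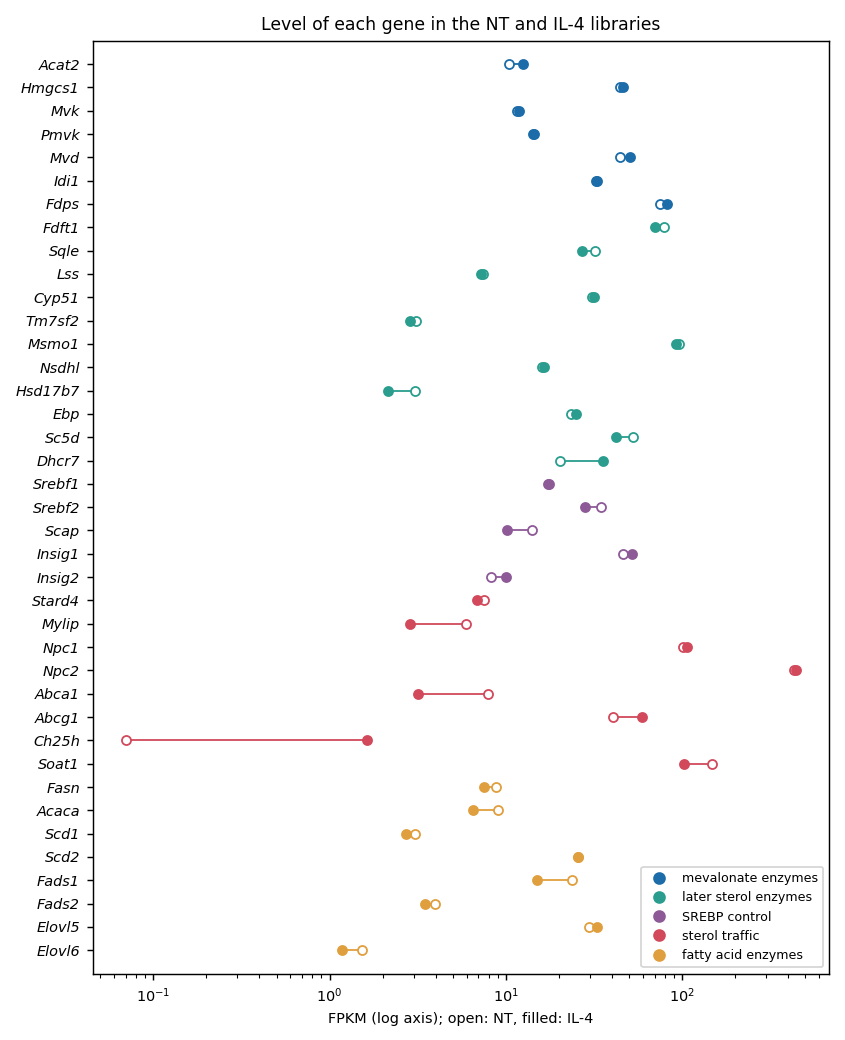
FPKM of each gene on a log axis in the NT library (open circles) and the IL-4 library (filled circles), coloured by role, with 1 library a group. Open and filled circles nearly coincide for most enzymes and lie far apart for Ch25h (0.07 and 1.64 FPKM), Abca1 (7.94 and 3.18 FPKM) and Mylip (5.96 and 2.88 FPKM).

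None of the 7 mevalonate pathway genes was called, in a list where the background gives few calls. Their log2 ratios ran from -0.02 to 0.26. Together they held 486 CPM (counts scaled to library size) in NT and 515 CPM in IL-4. Fdps, which makes farnesyl diphosphate, was the most abundant per length, at 74.71 FPKM in NT and 81.99 FPKM in IL-4, with 1052 and 1176 expected counts (log2 ratio 0.13, interval 0.01 to 0.25). Hmgcs1, which condenses acetoacetyl-CoA with acetyl-CoA, had 1757 expected counts in NT and 1849 in IL-4 (44.75 and 46.14 FPKM, log2 ratio 0.05, interval -0.05 to 0.14). The libraries were within counting error of each other for Hmgcs1.

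Mvk and Pmvk, the kinases that phosphorylate mevalonate in turn, had 220 and 189 expected counts in NT and 228 and 191 in IL-4. Mvd, the decarboxylase that follows them, had 861 in NT and 998 in IL-4 (log2 ratio 0.19, interval 0.05 to 0.32). Idi1, the isomerase that makes dimethylallyl diphosphate, had 1051.03 and 1057 expected counts. Acat2, the cytosolic thiolase at the entry of the pathway, had 238.53 and 291.72 expected counts (log2 ratio 0.26, interval 0.01 to 0.51). With length medians subtracted, Mvd was 0.06 (interval -0.07 to 0.19), Acat2 0.17 (interval -0.08 to 0.42) and Fdps -0.06 (interval -0.18 to 0.07). Each of these intervals included 0. Acat2 shared 50.5% of the 31-base words of its transcript with other genes, of which Acat3 was the closest, and Fdps shared 89.7%, so both values are uncertain.

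Of the 11 genes that act from squalene synthesis onward, only Dhcr7 was called (higher, beside 4.07% of all genes tested). Dhcr7 (chromosome 7, 143823167 to 143848410, GRCm38) encodes the reductase that turns 7-dehydrocholesterol into cholesterol. It had 639 expected counts in NT and 1144 in IL-4, or 20.25 and 35.54 FPKM. It rose 1.76-fold (log2 ratio 0.81, interval 0.67 to 0.95), and the interval included the threshold. Subtracting the median of 200 genes of similar length left 0.74, just under it. Dhcr7 was also not called where a variation between animals of 0.2 (coefficient of variation) was assumed.

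The other later sterol enzymes lay between -0.49 and 0.09 on the log2 scale. Msmo1, which removes the methyl groups at position C4, was the most abundant per length, with 1926 expected counts in NT and 1887 in IL-4 (95.88 and 92.1 FPKM) and a log2 ratio of -0.06. Its interval, -0.15 to 0.04, included 0. With its length median subtracted Msmo1 was -0.19, and the interval, -0.28 to -0.10, lay below 0. Fdft1 (squalene synthase) had 3255 and 2984 expected counts (log2 ratio -0.15, interval -0.23 to -0.08). Sqle (squalene epoxidase) had 980 and 837 (log2 ratio -0.26, interval -0.39 to -0.12). Both intervals lay below 0 and well inside the threshold.

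Lss, which closes the ring to give lanosterol, had 528 expected counts in NT and 525 in IL-4. Cyp51, which removes the methyl group at C14, had 1504.66 and 1568.83. With length medians subtracted, Lss was 0.23 (interval 0.05 to 0.41) and Cyp51 0.15 (interval 0.04 to 0.25). Tm7sf2, the reductase that follows Cyp51, was low, with 51 and 48 expected counts. Nsdhl and Hsd17b7, partners of Msmo1 in C4 demethylation, had 392 and 155.04 expected counts in NT and 415 and 112.03 in IL-4. Hsd17b7 had the lowest log2 ratio of these enzymes, -0.49, with an interval from -0.86 to -0.14. With its length median subtracted it was -0.33, and the interval, -0.70 to 0.02, included 0. Sc5d was then the lowest, at -0.37. Ebp, the isomerase, had 455 and 494 expected counts. Sc5d, which makes 7-dehydrocholesterol, the substrate of Dhcr7, had 1307.1 and 1077.62 (log2 ratio -0.31, interval -0.42 to -0.19). The interval of Sc5d thus lay below 0 and that of Dhcr7 above it, although they catalyse successive steps.

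Summed over the 18 sterol synthesis enzymes, the total was level, but its parts moved in opposite directions. The sum was 1501 CPM in NT and 1501 CPM in IL-4, and the log2 ratio of the sums had a counting interval from -0.03 to 0.03. The 7 mevalonate genes were higher in sum (log2 ratio 0.08, interval 0.03 to 0.14). The 11 later enzymes were lower in sum (-0.04, interval -0.08 to -0.003), although Dhcr7 alone went from 57.9 to 101.7 CPM. The median log2 ratio of the 18 was 0.01, with 9 genes above 0 and 9 below. A ratio under 0.25 in size was seen in 13 of the 18 (72.2%). The interval of 16 of the 18 lay within the threshold on both sides, and the exceptions were Dhcr7 and Hsd17b7.

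None of the 5 SREBP control genes was called, in a list where the background gives few calls. Srebf1, which encodes the factors that act mostly on fatty acid genes, had 846 expected counts in NT and 875 in IL-4, a log2 ratio of 0.02. Srebf2, whose factor acts mostly on sterol genes, had 1764 and 1460 (log2 ratio -0.30, interval -0.40 to -0.20). Scap, the escort, had 660 and 481 (log2 ratio -0.48, interval -0.66 to -0.31). Srebf2 and Scap were thus lower in IL-4 by more than counting error but under the threshold.

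Insig1, itself an SREBP target, was the most abundant of these genes per length, at 46.04 FPKM in NT and 51.81 FPKM in IL-4. It had 1361 and 1562 expected counts (log2 ratio 0.17, interval 0.07 to 0.28). Insig2, which is not driven by SREBPs, had 231 and 289 expected counts (log2 ratio 0.29, interval 0.04 to 0.55). The intervals of both Insig genes lay above 0 and those of Srebf2 and Scap below it. With length medians subtracted, Insig1 was 0.17 (interval 0.06 to 0.28), while for Insig2, at 0.25, the interval included 0 (-0.007 to 0.50). Srebf2 was then -0.14 (interval -0.24 to -0.04) and Scap -0.39 (interval -0.57 to -0.22). Srebf1 was then 0.14, with an interval just above 0 (0.0003 to 0.28).

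Sterol traffic held 3 of the 4 called genes. Of its 8 genes, 1 was called higher (beside 4.07% of all genes tested) and 2 lower (beside 6.28%). So few calls are not read as a trait of this role. Abca1 (chromosome 4, 53030789 to 53159988) encodes the transporter that loads cholesterol onto lipid-poor apolipoprotein. It had 912 expected counts in NT and 373 in IL-4, or 7.94 and 3.18 FPKM. It fell by 1.32 on the log2 scale, a level 2.49-fold lower, with an interval from -1.50 to -1.14. Abca1 has a long transcript (10260 bases), and genes near it in length had a median log2 ratio of -0.51. With that median subtracted, its log2 ratio was -0.81 with an interval from -0.99 to -0.64, and it was still called.

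Abcg1 (chromosome 17, 31057694 to 31117984), the transporter that passes cholesterol to high-density lipoprotein, went the other way. It had 2626 expected counts in NT and 3950 in IL-4, or 40.4 and 59.58 FPKM. At a log2 ratio of 0.56 (interval 0.49 to 0.63) it was not called. With the length median of -0.33 subtracted it was 0.89, with an interval from 0.82 to 0.96, and it was then called higher. Within each library, Abcg1 was 5.09 times as abundant as Abca1 in NT and 18.7 times in IL-4, in FPKM. The log2 ratio of Abcg1 exceeded that of Abca1 by 1.88 (interval 1.69 to 2.07), a difference that does not depend on how the libraries are scaled, and by 1.70 with length medians subtracted.

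Mylip (chromosome 13, 45389742 to 45411940) had 197.46 expected counts in NT and 97.26 in IL-4, or 5.96 and 2.88 FPKM. It fell by 1.05 on the log2 scale, a level 2.06-fold lower, with an interval from -1.42 to -0.69 that included the threshold. Genes near it in length had a median of -0.02, so that it was -1.03 with the median subtracted. Abca1 and Mylip, both LXR targets, were each no longer called with an assumed coefficient of variation of 0.4.

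Ch25h (chromosome 19, 34473783 to 34475148), which makes the oxysterol 25-hydroxycholesterol, had 1 expected count in NT and 25 in IL-4, or 0.07 and 1.64 FPKM. Its log2 ratio was 4.06, with a wide interval from 2.01 to 9.98. The NT value lay under the floor of 3 counts. Ch25h was still called at an assumed variation of 0.4. Its exon overlaps that of Gm26902 on the opposite strand, and the strandedness of the libraries was not given, so reads of the pair cannot be told apart.

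Soat1, which esterifies cholesterol for storage, was abundant in both libraries, with 7897.35 expected counts in NT and 5603.72 in IL-4 (148 and 102.96 FPKM). At a log2 ratio of -0.52 (interval -0.57 to -0.47) it was not called. Npc1 and Npc2, which release cholesterol from lysosomes, had 5871 and 15813 expected counts in NT and 6367 and 16489 in IL-4. Their log2 ratios were 0.09 (interval 0.04 to 0.14) and 0.03 (interval 0.00 to 0.06). Stard4, a cytosolic sterol carrier, had 249 and 231 expected counts (log2 ratio -0.14, interval -0.40 to 0.13). The lysosomal genes and Stard4 were thus close to level, while Soat1 was lower by more than counting error. With length medians subtracted, Npc1 was 0.32 (interval 0.27 to 0.37) and so lay above genes of its length. Npc2 was then 0.06, Stard4 -0.12 and Soat1 -0.34 (interval -0.39 to -0.29).

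None of the 8 fatty acid genes was called, in a list where the background gives few calls. Of the 8, 7 had a log2 ratio below 0, beside 8523 of the 15593 genes tested. The median of the 8 was -0.21. Their transcripts are long, with a median of 5149 bases beside 2707 bases for all genes tested, and with length medians subtracted the median was 0.01. Fasn, the fatty acid synthase, had 985 expected counts in NT and 855 in IL-4 (8.85 and 7.53 FPKM). The log2 ratio, -0.23 (interval -0.37 to -0.10), turned to 0.27 with the length median subtracted. Acaca, which makes malonyl-CoA for Fasn, had 915 and 677, a log2 ratio of -0.46 that became -0.01 with the length median subtracted. Fasn thus lay above genes of its length (interval 0.14 to 0.41), and for Acaca the interval, -0.16 to 0.13, included 0.

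Fads1, the delta-5 desaturase of polyunsaturated fatty acids, was the furthest from 0 of these genes. It had 920 expected counts in NT and 592 in IL-4 (23.82 and 15.02 FPKM, log2 ratio -0.66, interval -0.82 to -0.51). Its length median was only -0.03. Fads1 was called lower at a fold change over 1.5 with an adjusted value of at most 0.05, the rule in the methods of the study. Fads2, the delta-6 desaturase beside it on chromosome 19, had 66 and 59 expected counts, and its interval from -0.72 to 0.34 included 0.

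Scd2 and Scd1, the desaturases that make oleate and palmitoleate, had 1566.65 and 164.69 expected counts in NT and 1595.15 and 150.59 in IL-4. Scd2 was 8.44 times as abundant as Scd1 in NT and 9.41 times in IL-4, in FPKM. The Scd genes shared at most 8.26% of their 31-base words with other genes, mainly with Scd3. Elovl5, the elongase of polyunsaturated chains, was the most abundant of the list per length, at 29.76 and 32.87 FPKM, with 925 and 1042 expected counts (log2 ratio 0.14, interval 0.01 to 0.27). Elovl6, the elongase of saturated chains, had 101.99 and 79.01 expected counts, and its log2 ratio of -0.39 had an interval from -0.84 to 0.04 that included 0.

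Across 7 pairs of related genes, 3 had log2 ratios that differed by more than counting error. Abcg1 and Abca1 are given above. Srebf2 had a log2 ratio 0.32 lower than that of Srebf1 (difference -0.32, interval -0.49 to -0.15). Soat1 differed from Soat2, its scarce relative, which had 36.75 expected counts in NT and 59.69 in IL-4, by -1.19 (interval -1.83 to -0.58). For Scd2 and Scd1 the difference was 0.15, with an interval from -0.19 to 0.50. For Insig1 and Insig2 it was -0.12 (interval -0.40 to 0.15), for Npc2 and Npc1 -0.06 (interval -0.12 to 0.00), and for Fads1 and Fads2 -0.47 (interval -1.03 to 0.08). These 4 intervals included 0, which does not show that the genes of a pair behaved alike. With length medians subtracted the differences were -0.27 for Npc2 and Npc1, -0.28 for Srebf2 and Srebf1, and -0.95 for Soat1 and Soat2. They were then 0.21 for Scd2 and Scd1, -0.08 for Insig1 and Insig2, and -0.34 for Fads1 and Fads2. The count of 3 thus holds for ratios without the length correction.

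Transcript length moved with the ratio in these libraries. Across the 8463 genes with at least 200 reads the Spearman correlation of the log2 ratio with length was -0.452, and across the 39 genes here it was -0.429. Genes share their library in such a correlation and are not replicates. The median log2 ratio was 0.04 in the 20 genes under 3000 bases and -0.16 in the 19 longer ones. With length medians subtracted, 2 of the 39 genes were called higher (Ch25h and Abcg1, beside 4.07% of all genes tested) and 2 lower (Abca1 and Mylip, beside 4.83%). With 1 library a group, a length trend of the libraries and one of the treatment cannot be told apart.

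**Figure D4:**
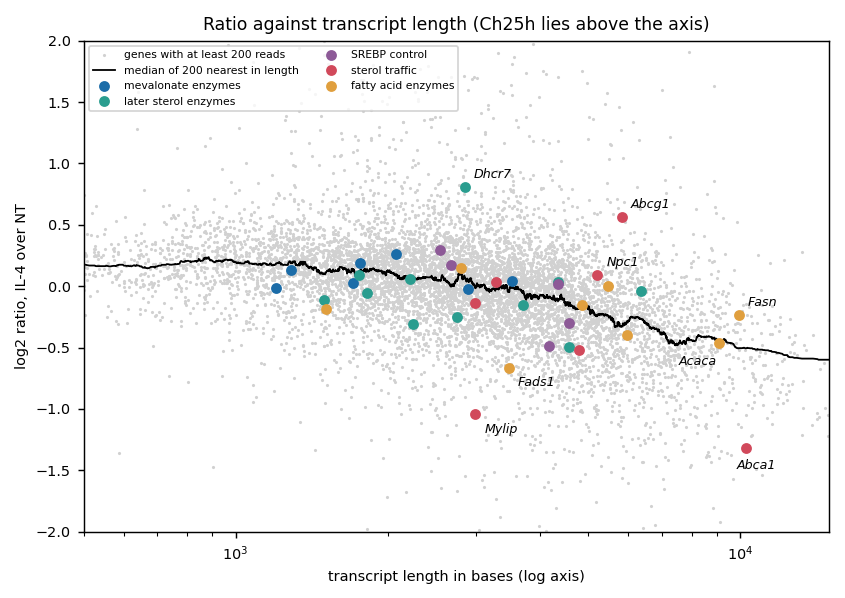
Log2 ratio of IL-4 over NT against transcript length in bases (log axis) for the 8463 genes with at least 200 reads (grey), the median of the 200 genes nearest in length (line) and the genes described here (coloured by role). Abca1 lies below the line and Abcg1 above it, while Acaca lies on the line, and Ch25h, at 4.06, lies above the axis.

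Other genes of these pathways, from lists written with earlier results known, were mostly not called either. Of 71 listed, 68 were tested, of which 3 were higher (beside 4.07% of all genes tested) and 4 lower (beside 6.28%), so few that nothing is read from the counts. Their median log2 ratio was -0.03. Fads3, a relative of the Fads desaturases, rose from 27 to 81 expected counts (log2 ratio 1.54, interval 0.91 to 2.24). Pdss1, which makes the side chain of ubiquinone, rose from 21 to 42 (log2 ratio 0.96, interval 0.18 to 1.80). Cyp7b1, which hydroxylates oxysterols such as the product of Ch25h, rose from 3 to 12, with an interval on the log2 scale from 0.08 to 4.44. These 3 genes were low in both libraries, at no more than 2.29 FPKM.

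Among the lower genes, Mid1ip1, which activates acetyl-CoA carboxylase, had ample counts, with 1367 expected counts in NT and 819 in IL-4. It fell by 0.77 on the log2 scale, with an interval from -0.89 to -0.64. Me1, a source of NADPH for lipid synthesis, fell from 33 to 18 expected counts. Osbpl8, an oxysterol-binding protein relative, fell from 6360.32 to 3372.57, a log2 ratio of -0.94 that was -0.52 and not called with its length median subtracted. Abca5, a relative of Abca1, fell from 61 to 23, a log2 ratio of -1.42. Among the 7 genes for the LXRs, their partners and targets, and the 13 for the SREBP machinery, 0 were called, in lists where the background gives few calls. Of the 7, 5 had a log2 ratio below 0, beside 8523 of the 15593 genes tested, and the median of the 7 was -0.06. Their summed CPM went from 908 in NT to 768 in IL-4 (log2 ratio -0.24, interval -0.28 to -0.20). Most of that drop was Smpdl3a, which went from 450 to 329 CPM. The interval lay below 0 for Rxrb (log2 ratio -0.48), Smpdl3a (-0.45) and Lpcat3 (-0.28). It lay above 0 for Nr1h3, which encodes LXR alpha, with 523 and 671 expected counts (log2 ratio 0.33).

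**Figure D5:**
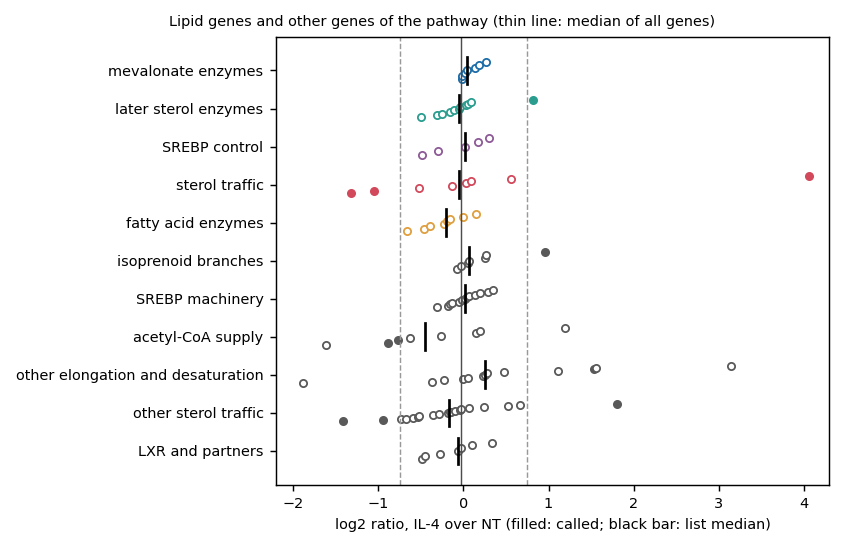
Log2 ratio of IL-4 over NT for the 39 genes by role (coloured) and for 68 other genes of these pathways (grey), with filled circles where called, a black bar at the median of each list and dashed lines at 0.75 in each direction. Most circles lie between the dashed lines, in every role of the 39 genes.

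The NT library held 11035641 expected counts and the IL-4 library 11250099, and 3 counts corresponded to 0.272 and 0.267 CPM. Macrophage markers were present (8 of 8 listed in both libraries, 17095 CPM summed in NT and 17408 CPM in IL-4), with Csf1r called higher and Cd14 lower. Of the 10 adipocyte markers, Adipoq rose from 0 to 139 expected counts (0 to 12.4 CPM), while Lep, Plin1, Cidec and Cfd were not listed in either library. The list summed to 23.6 CPM in NT and 35.3 CPM in IL-4. Most of both sums was Lipe, which was close to level at 22.8 and 21.9 CPM. Markers of mesothelium and fibroblasts summed to 131 CPM in NT and 106 CPM in IL-4. Those of neutrophils, eosinophils, mast, B and T cells summed to at most 10.8 CPM each. Their part in the differences above was not tested. Exons of 10 of the 39 genes overlap those of a gene on the opposite strand, among them Fdft1 with Ctsb. More than 5% of 31-base words were shared with other genes in 8 of the 39, most in Fdps, Acaca (56.8%) and Acat2.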

How the data were processed

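Total RNA of peritoneal macrophages was sequenced on the Illumina HiSeq platform. Alignment by the authors used Bowtie against GRCm38/mm10, followed by RSEM for gene levels (versions not given in the sources used here). The deposited expected counts are RSEM estimates of the reads of each gene and are not scaled for depth, and FPKM values were computed by the authors relative to transcript length and library size. The transcript length in bases was taken from the deposited tables. A gene absent from a table was set to 0. Gene numbers were matched to symbols and GRCm38 coordinates through a RefSeq table (15587 of 15623 matched).

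Log2 ratios used counts scaled to library totals, with 0.5 count added. Expected counts were rounded and 15593 genes with at least 1 read were tested by an exact two-sided conditional binomial test (2 times the smaller tail) against the IL-4 share of all reads, with Benjamini-Hochberg adjustment over all genes tested. Intervals are Clopper-Pearson 95% intervals of that share on the log2 scale. Differences between genes of a pair have exact conditional intervals of the odds ratio. For the length correction a running median over the 200 genes of most similar length and 200 or more reads was subtracted. The share of 31-base words and the overlap of exons used GENCODE mouse release M21. The procedure was tested on simulated data. Genes and lists were chosen with earlier results of these data known. By rule, called genes and the most abundant gene of each role are given in full. Alternatives were other scalings (edgeR 4.0.16, DESeq2 1.42.0), FPKM with 0.1 or 1 added, assumed variation between animals (edgeR), other thresholds, a filter on low counts and the length correction. Python 3.11.15, scipy 1.17.1 and R 4.3.3 were used.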

Additional observations from a re-analysis of the deposited data

How the results depend on the processing

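No paired analysis was possible because NT and IL-4 have 1 library each. As reported, 2 genes were higher and 2 lower, with a median log2 ratio of -0.02 over the 39 genes and 0.01 over the sterol synthesis enzymes. Over the alternatives run, the first median ranged from -0.04 to 0.02 and the second from -0.06 to 0.04, so neither kept a direction. With an assumed coefficient of variation of 0.2, 1 gene was higher (2.5% of all genes tested), without Dhcr7. With 0.4, 1 was higher (0.417%) and 0 lower (0.0513%), without Dhcr7, Abca1 and Mylip. Requiring both a log2 ratio of at least 1 and an adjusted value of at most 0.05 left 1 higher (2.62%), without Dhcr7. The length correction replaced Dhcr7 (0.74) with Abcg1 (0.89), and a fold change over 1.5 with an adjusted value of at most 0.05 added Fads1 among the lower genes. These losses under assumed variation and thresholds follow from the settings themselves. Other scalings shifted all ratios by at most 0.037 and changed no call.

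Some genes that were not called changed sign. Under TMM scaling the log2 ratios became 0.017 for Idi1, 0.00082 for Lss, 0.024 for Pmvk and 0.035 for Scd2, and under median-of-ratios scaling 0.0082 for Idi1, 0.015 for Pmvk and 0.026 for Scd2. With the length correction they became -0.028 for Ebp, 0.27 for Fasn, -0.056 for Fdps, 0.23 for Lss, -0.12 for Mvk, -0.019 for Nsdhl, 0.03 for Scd1 and 0.24 for Scd2. No called gene changed sign under the alternatives run. Depth limits Ch25h, Tm7sf2 and Fads2, whose intervals are wide, and with 1 library a group variation between animals could not be estimated.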
